A study of Mus musculus with 12 samples.

Results

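The collagen genes of the mouse dentate gyrus, part of the hippocampus, are described here in 12 libraries of total RNA. They were chosen by name: protein-coding genes whose symbol is Col, a number, the letter a and a number, with at least 10 counts summed over the libraries. All 44 such genes reached that minimum, among 52636 genes in the count tables and 15861 protein-coding genes with as many counts. The lowest totals that qualified were 10 counts for Col10a1 and 15 for Col17a1, and no gene fell below the minimum. Collagens are secreted or membrane-bound proteins of the extracellular matrix whose chains wind around each other in a helix. Fibrillar chains build the cables of connective tissue, network chains such as type IV build basement membranes, and fibril-associated, beaded-filament and transmembrane chains link matrix to matrix or matrix to cells. In the brain they are best known from the meninges and from the basement membranes of blood vessels, and a few are made by neurons.

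The mice were of the strain C57BL/6, and each of the 4 groups had 3 libraries. The groups were wild type (WT), knockout (KO) of Fst, the knockout given an AAV9 vector for green fluorescent protein (labelled KO+AAV9-CB::GFP, GFP vector here), and mice that received the vector with Fst in place of that protein (labelled OE+AAV9-CB::Fst, Fst vector here). Fst encodes follistatin, a secreted protein that binds activins, which signal through SMAD transcription factors. No age is given, the cells in which the knockout or the vector acts are not stated, and the labels give the Fst vector group no genotype. Whether a library holds 1 mouse or a pool is not clear from the labels, so p-values measure only the spread between these libraries. Titles and descriptions give different sexes for WT F1, WT M2, KO F1 and KO M2, and libraries carry the names in their titles.

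Libraries held 8081824 to 11331337 counts. Levels are CPM, counts scaled to a fixed library total, and a count of 3 equals 0.265 to 0.371 CPM. Fst stood at 3.54 to 4.50 CPM in WT, 0.203 to 0.428 in KO, 0 to 0.0974 with the GFP vector and 165.7 to 204.1 with the Fst vector. All 9 listed markers of dentate granule neurons were detected in every library. Ribosomal RNA took at most 0.0211% of the counts in 7 libraries, and 0.575 to 0.679% in the other 5 (GFP M2, WT F1, KO M2 and both Fst M2 and F). The library GFP F stood apart in Gfap: the 8 listed astrocyte markers summed to 6514 CPM there, against 1928 to 3297 in the other 11 libraries. Gfap alone, one of them, was at 4864 CPM in GFP F and at 369.8 to 1555 in those 11. Over all genes tested, Fst M1 was the highest library for 21.5% and the lowest for 19.0%, against 16.8% and 17.1% for GFP F. Among the 33 collagens tested over all libraries, GFP F was the highest for 13 and Fst M1 for 2. Results of the vector comparison that GFP F moves most are given with and without it. WT and KO came in one count table and the vector groups in another, so a level set across tables cannot separate the vector from the table.

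The sequences upstream of 4 collagen genes that carry the results are shown first, because follistatin acts on ligands whose SMAD effectors bind DNA at the letters CAGAC. They were taken from RefSeq, assembly GRCm38.p6, on the strand of the gene, 5′ to 3′, and they hold no exon of a protein-coding gene. Capitals mark CAGAC or its reverse complement GTCTG, and the GC box GGGCGG or its reverse complement CCGCCC, which is known as a binding site of SP factors. Col6a4 (chr9:106096784-106096941, minus strand) was lower in both comparisons, and its stretch lies inside an exon of the unreviewed gene model Gm36993 on the other strand. Col18a1 (chr10:77166549-77166780, minus strand) had the smallest p of the collagens in the vector comparison. Col6a1 (chr10:76726169-76726294, minus strand) had the highest level per length, and Col3a1 (chr1:45311288-45311537, plus strand) the widest range between libraries of those detected in all.
Col6a4: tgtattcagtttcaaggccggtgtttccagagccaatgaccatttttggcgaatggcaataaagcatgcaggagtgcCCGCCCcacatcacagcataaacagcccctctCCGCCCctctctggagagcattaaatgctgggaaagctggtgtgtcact
Col18a1: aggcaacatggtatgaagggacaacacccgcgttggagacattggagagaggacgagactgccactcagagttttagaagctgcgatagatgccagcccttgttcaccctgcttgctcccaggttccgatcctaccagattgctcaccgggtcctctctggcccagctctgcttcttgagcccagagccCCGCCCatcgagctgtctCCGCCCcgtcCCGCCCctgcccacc
Col6a1: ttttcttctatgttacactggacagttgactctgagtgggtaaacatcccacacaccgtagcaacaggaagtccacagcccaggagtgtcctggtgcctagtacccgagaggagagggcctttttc
Col3a1: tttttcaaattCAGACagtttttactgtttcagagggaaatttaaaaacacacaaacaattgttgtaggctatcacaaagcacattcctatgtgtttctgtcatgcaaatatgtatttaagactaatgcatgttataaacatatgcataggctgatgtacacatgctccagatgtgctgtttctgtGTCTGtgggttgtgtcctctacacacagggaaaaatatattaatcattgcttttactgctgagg
Col3a1 holds 2 matches to the SMAD letters and no GC box, Col18a1 holds 3 GC boxes, Col6a4 holds 2 GC boxes, and the stretch of Col6a1 holds neither motif. The stretches are 250 (Col3a1), 232 (Col18a1), 158 (Col6a4) and 126 (Col6a1) bases long, cut to parts free of exons of protein-coding genes. Their motif counts are thus not for equal lengths, and the shares that follow are of uncut windows. Upstream windows of 250 bases were in the table for 35 of the 44 genes, as 38 windows. Of these, 17 (44.7%) held CAGAC on either strand, against 42.2% of all 32851 windows, a share close to that of all genes. A GC box was in 22 of the 38 (57.9%), against 32.7% of all windows. The motifs can share 1 base where they meet. A match is a run of letters and not a measured binding site. Col1a1, Col2a1, Col4a3, Col5a2, Col9a3, Col12a1, Col14a1, Col22a1 and Col26a1 were not among the windows.

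Levels were compared between genes per kilobase (kb) of annotated exon. Col6a1 (ENSMUSG00000001119; GRCm38 chromosome 10, 76708792 to 76726168), a chain of the beaded filaments of collagen VI, was highest at a mean of 28.0 ± 30.4 CPM per kb over the 12 libraries (SD). The SD exceeded the mean, because Col6a1 ranged from 5.47 CPM per kb in KO M1 to 101.8 in GFP M2. Col4a2 (8.94 ± 1.39 CPM per kb) and Col4a1 (5.44 ± 1.64), the chains of the common basement membrane network of blood vessels, were the second and the fifth in order. Col25a1, a transmembrane collagen of neurons also found in amyloid plaques, was the third at 7.09 ± 3.17 CPM per kb. Col11a2, a minor chain of cartilage fibrils, was the fourth at 6.19 ± 1.36. Neighbours among these 5 differed by less than the larger of their SDs over the libraries. Col4a2 was among the steadiest, with its highest library at 1.62 times its lowest, and Col20a1, a fibril-associated chain at 3.62 ± 0.426 CPM per kb, spanned 1.5 times. Col20a1 shares 79 exon bases with BX649560.1 on the same strand, and Col4a1 and Col4a2 overlap by 22 bases on opposite strands. Reads there may not have been told apart, since strand handling is not stated.

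**Figure D1:**
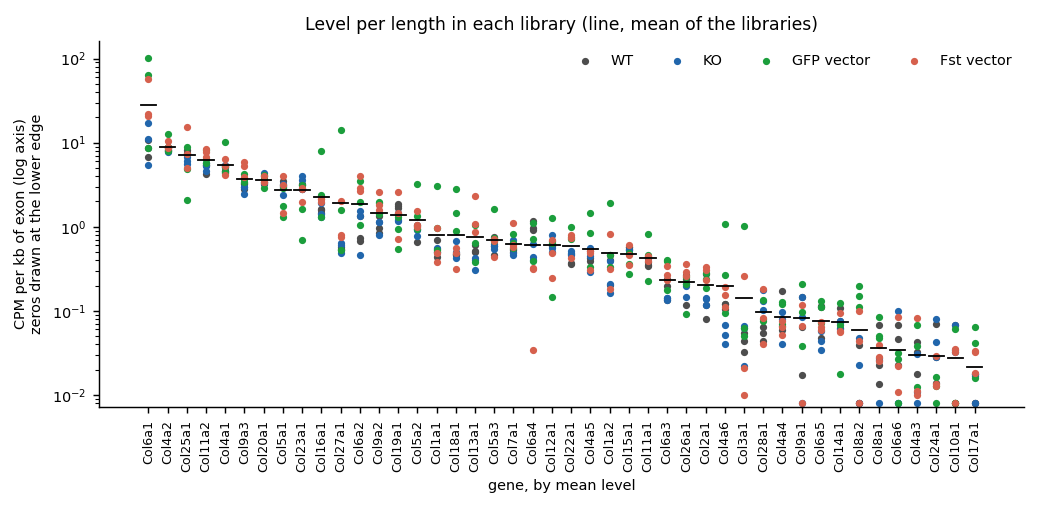
Level of each of the 44 collagen genes as CPM per kb of exon on a log axis, genes ordered by their mean. Each point is 1 library coloured by group, the line is the mean of the 12 libraries, and zeros are drawn at the lower edge. Col6a1 spans 5.47 to 101.8 CPM per kb, while Col4a2 in the next place spans 7.84 to 12.7.

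Levels differed widely within the classes. Among fibrillar chains, Col11a2 and Col5a1 (2.74 ± 0.838 CPM per kb) were well above the type I chains of bone, skin and meninges, Col1a1 (0.801 ± 0.730) and Col1a2 (0.486 ± 0.481). Col27a1, a cartilage fibril chain, averaged 1.93 ± 3.86 CPM per kb, Col5a2 1.21, Col5a3 0.702, Col11a1 0.428, Col2a1 0.205, Col3a1 0.143 and Col24a1 0.0288. Of the basement membrane chains, Col4a5 (0.545 CPM per kb), Col4a6 (0.199), Col4a4 (0.0853) and Col4a3 (0.0296), which serve more specialised membranes such as that of the kidney filter, were far below Col4a1 and Col4a2. In the beaded-filament class the other chains stood at 1.84 for Col6a2, 0.613 for Col6a4, 0.234 for Col6a3, 0.0765 for Col6a5 and 0.0344 for Col6a6. The fibril-associated chains ran from Col9a3 (3.70) and Col20a1 through Col16a1 (2.27), Col9a2 (1.46), Col19a1 (1.39), Col12a1 (0.601) and Col22a1 (0.591) to Col9a1 (0.0820) and Col14a1 (0.0728). The other transmembrane chains were Col23a1 (2.73), Col13a1 (0.757) and Col17a1 (0.0216), the last a hemidesmosome protein of skin. The multiplexins, basement membrane collagens that carry heparan or chondroitin sulfate chains, were Col18a1 (0.796) and Col15a1 (0.480). Col7a1, the anchoring fibril of skin, stood at 0.628 CPM per kb, above the hexagonal network chains Col8a2 (0.0589), Col8a1 (0.0360) and Col10a1 (0.0276). Col26a1 and Col28a1, placed in no class here, stood at 0.220 and 0.0972.

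A total of 8 collagens were at 0 counts in at least 1 library: Col10a1 in 5, Col8a2 in 4, Col6a6 and Col17a1 in 3, Col9a1 in 2, and Col4a3, Col8a1 and Col24a1 in 1. Of the 44 genes, 30 passed the filter on low counts for the test of KO against WT, 31 that of the vector groups and 33 that of all libraries. Col3a1, Col4a3, Col6a6, Col8a1, Col8a2, Col9a1, Col10a1, Col14a1, Col17a1, Col24a1 and Col28a1 passed in none of these.

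A wide spread between libraries of a group was more frequent among collagens than among genes at large. The gap was widest with the GFP vector and smallest in KO, where it rested on 4 genes. Genes at large were not matched to the collagens by level. Counting error alone widens the range of genes with few counts, such as Col4a6 with 12 counts in KO. The highest library of the GFP vector group was at least 2 times the lowest for 22 of the 33 collagens tested over all libraries (66.7%), against 18.1% of all 15632 genes. In the Fst vector group this held for 10 (30.3% against 13.5%), in WT for 6 (18.2% against 7.42%) and in KO for 4 (12.1% against 7.81%). GFP F was the highest of the 12 libraries for 13 of the 33 (39.4%), against 16.8% of all genes. It was the lowest library for 3 of them, the fibril-associated Col19a1 and the transmembrane Col23a1 and Col25a1.

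**Figure D2:**
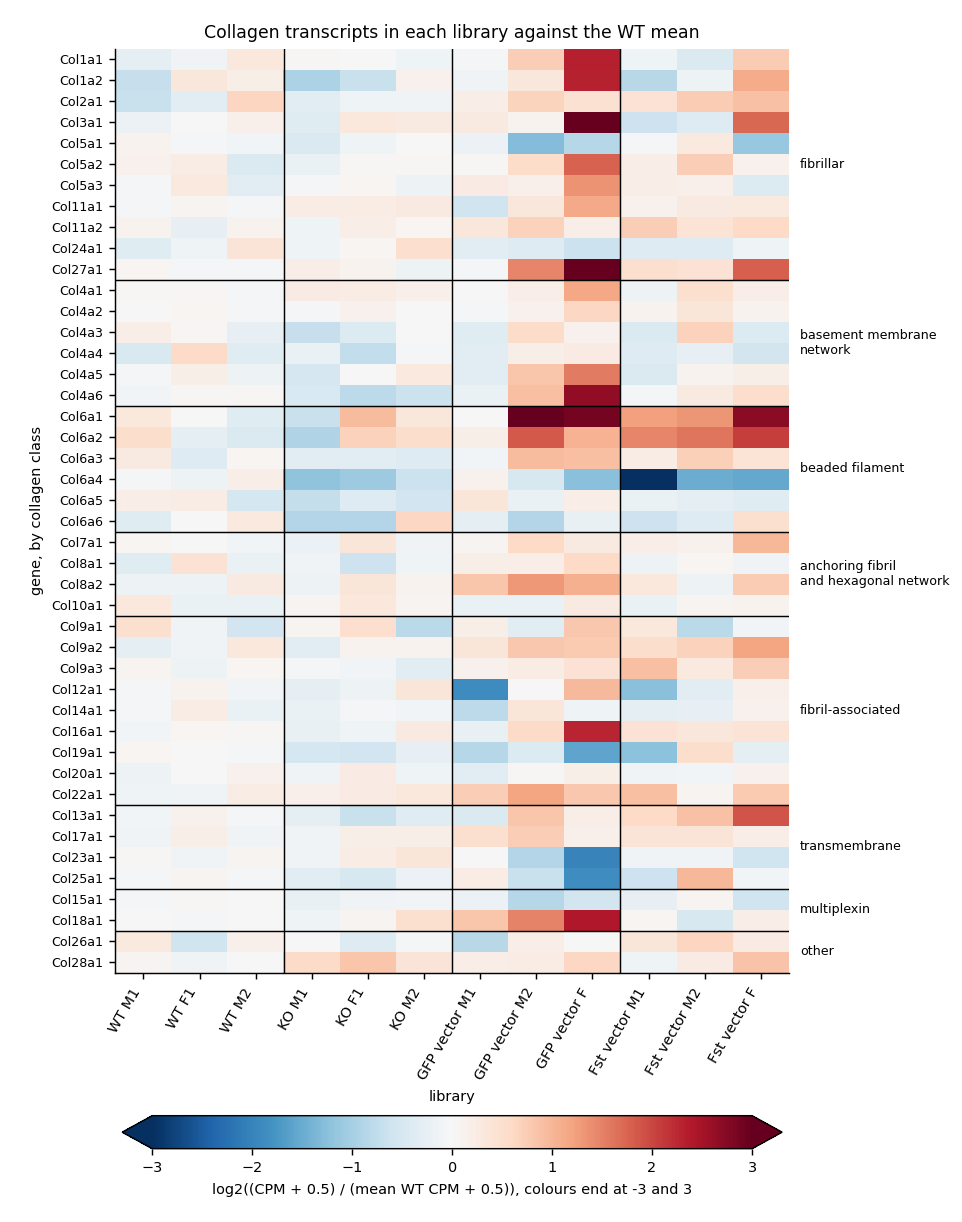
Each collagen gene (rows, by class) in each library (columns, by group) as log2 of CPM plus 0.5 over the WT mean plus 0.5, blue lower and red higher, with colours ending at -3 and 3. The GFP F column is red for many fibrillar and basement membrane chains and blue for Col19a1, Col23a1 and Col25a1, and the Col6a4 row is blue in KO and in the Fst vector group.

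Whether loss of follistatin went with a different set of collagen transcripts was asked by comparing KO with WT. No collagen passed the test after adjustment (edgeR quasi-likelihood, Benjamini-Hochberg over all genes), where 4 of 14919 genes, 0.0268%, did, and DESeq2 called 0 collagens too. At an unadjusted p under 0.05 there were 4 of 30 collagens, 3 lower and 1 higher, against 5.96% of all genes. The groups did not overlap for 7 of the 30, 2 higher and 5 lower in KO, against 11.0% of all genes. By log2 change 14 were higher and 16 lower, with a median of -0.01, beside -0.0008 for all genes tested. The collagens with the smallest p were Col6a4, Col25a1 and Col19a1, all lower in KO, and Col4a1, higher.

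Col6a4 (ENSMUSG00000032572; chromosome 9, 105989454 to 106096783, minus strand) encodes an alternative chain of collagen VI that is intact in the mouse and broken in humans. It stood at 8.19, 7.72 and 9.88 CPM in WT M1, F1 and M2, and at 3.44, 3.75 and 5.28 in KO M1, F1 and M2. Every KO library was below every WT library. The means were 4.16 ± 0.988 CPM in KO and 8.60 ± 1.14 in WT (SD, n = 3 each), from 119 and 262 counts. The log2 change was -1.03 ± 0.20 (SE, edgeR), with an unadjusted p of 1.7e-05 and an adjusted p of 0.0513, just above the threshold of 0.05. Over 14 alternatives the log2 change ran from -1.24 to -0.91 and the adjusted p from 0.00116 to 0.541. The adjusted p was 0.0343 without WT F1 and 0.0227 without KO M2. With all libraries it was 0.0160 with sex by title as a term, 0.0142 with the replicate names as a block and 0.301 with DESeq2. Single libraries and the terms of the model thus decided on which side of the threshold the adjusted p fell. Exons on the other strand, of Gm36993 and Gm47575, cover 1.49% and 1.90% of its exon bases with 35 and 0 counts in all, beside 608 for Col6a4. How reads on either strand were assigned is not stated.

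Col25a1 (chromosome 3, 130131501 to 130599877) was measured from the most counts of the lower genes. In WT M1, F1 and M2 it stood at 97.5, 106.0 and 95.8 CPM. In KO M1, F1 and M2 it stood at 78.7, 72.0 and 87.8 CPM, each below the lowest WT library. The means were 79.5 ± 7.93 and 99.8 ± 5.44 CPM (SD, n = 3 each). Its log2 change was -0.31 ± 0.07 (SE, edgeR, unadjusted p = 1.44e-04, adjusted p = 0.144), and the adjusted p ranged from 0.00599 to 0.607 over 14 alternatives. With no filter on low counts, or with sex by title as a term, it was 0.00599 or 0.0457.

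Col19a1 (chromosome 1, 24261890 to 24587472, minus strand), a fibril-associated collagen made by interneurons and known for its part in inhibitory synapses of the hippocampus, stood at 12.8, 12.1 and 11.65 CPM in WT M1, F1 and M2. In KO M1, F1 and M2 it stood at 8.38, 8.03 and 10.2 CPM, with no overlap. Its log2 change was -0.44 ± 0.15 (SE, edgeR, unadjusted p = 0.00654, adjusted p = 0.641). The 9 interneuron markers listed summed to 687.6 to 769.6 CPM in KO and 756.4 to 835.9 in WT, ranges that met. Of these markers 3 were lower and 1 higher at an unadjusted p under 0.05. The 6 listed markers of Cajal-Retzius cells, reelin-secreting neurons at the edge of the molecular layer, summed to 96.2 to 104.4 CPM in KO and 127.9 to 137.0 in WT, without overlap, and all 6 were detected in each of these libraries. Of the 5 tested, 4 were lower at an unadjusted p under 0.05 and none passed after adjustment. The 18 markers of meningeal fibroblasts summed to 72.0 to 91.0 CPM in KO and 84.1 to 109.1 in WT, overlapping. Of the 12 tested, 9 were lower by log2 change, with a median of -0.30. At an unadjusted p under 0.05, 2 were lower and 1 higher. All 5 blood markers were lower by log2 change, 2 of them at an unadjusted p under 0.05. None of either list passed after adjustment. The part of any of these cells in the collagen values was not tested. In bulk RNA, fewer cells of a type and less RNA per cell cannot be told apart.

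On the higher side, Col4a1 (chromosome 8, 11198423 to 11312826, minus strand) stood at 34.6, 34.8 and 32.5 CPM in WT M1, F1 and M2. In KO M1, F1 and M2 it was above these, at 40.1, 39.8 and 38.1 CPM. The log2 change was 0.23 ± 0.09 (SE, edgeR, unadjusted p = 0.0140, adjusted p = 0.751). Its partner Col4a2, which lies next to it and is read in the opposite direction, did not show that shift. Col4a2 stood at 54.1, 56.5 and 52.1 CPM in WT M1, F1 and M2 and at 51.9, 59.4 and 54.1 in KO M1, F1 and M2, overlapping (log2 change 0.04 ± 0.08, SE). The ratio of Col4a1 to Col4a2 per kb was 0.545 to 0.568 in WT and 0.594 to 0.685 in KO, so the ranges did not meet. The 12 endothelial markers listed summed to 187.6 to 207.3 CPM in WT and 194.4 to 216.3 in KO, and none of them had an unadjusted p under 0.05.

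The next smallest p among the higher genes belonged to Col23a1 and Col11a1. Col23a1, a transmembrane collagen, stood at 18.1, 16.2 and 18.5 CPM in WT M1, F1 and M2 and at 16.3, 20.6 and 22.9 in KO M1, F1 and M2 (log2 change 0.20 ± 0.12, SE). Its groups overlapped. Col11a1, a fibrillar chain of cartilage, stood at 4.41, 4.83 and 4.41 CPM in WT M1, F1 and M2 and at 5.37, 5.35 and 5.59 in KO M1, F1 and M2 (log2 change 0.28 ± 0.21, SE). Its groups did not overlap, at 137 and 155 counts in all. The other lower genes without overlap were Col13a1 (1.72 ± 0.287 CPM in KO and 2.49 ± 0.258 in WT; SD, n = 3 each) and Col15a1 (3.01 to 3.35 CPM in KO and 3.46 to 3.65 in WT). Outside the test, Col4a6 was at 0.321 to 0.537 CPM in KO (12 counts in all) and 0.840 to 0.971 in WT (28 counts). Col28a1 was at 0.508 to 0.857 CPM in KO (19 counts) and 0.215 to 0.315 in WT (8 counts).

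Among the most abundant collagens the remaining ones showed no shift beyond their spread. Col6a1 stood at 47.7, 38.0 and 29.7 CPM in WT M1, F1 and M2 and at 23.95, 75.0 and 48.6 in KO M1, F1 and M2. KO F1 and KO M2 were thus above all WT libraries and KO M1 below them, and the log2 change of 0.38 ± 0.49 (SE) became -0.06 without KO F1. Col11a2 stood at 37.7, 29.2 and 37.4 CPM in WT M1, F1 and M2 and at 31.6, 39.8 and 36.5 in KO M1, F1 and M2 (log2 change 0.06 ± 0.10, SE). Its sign turned without WT F1 and without KO F1.

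**Figure D3:**
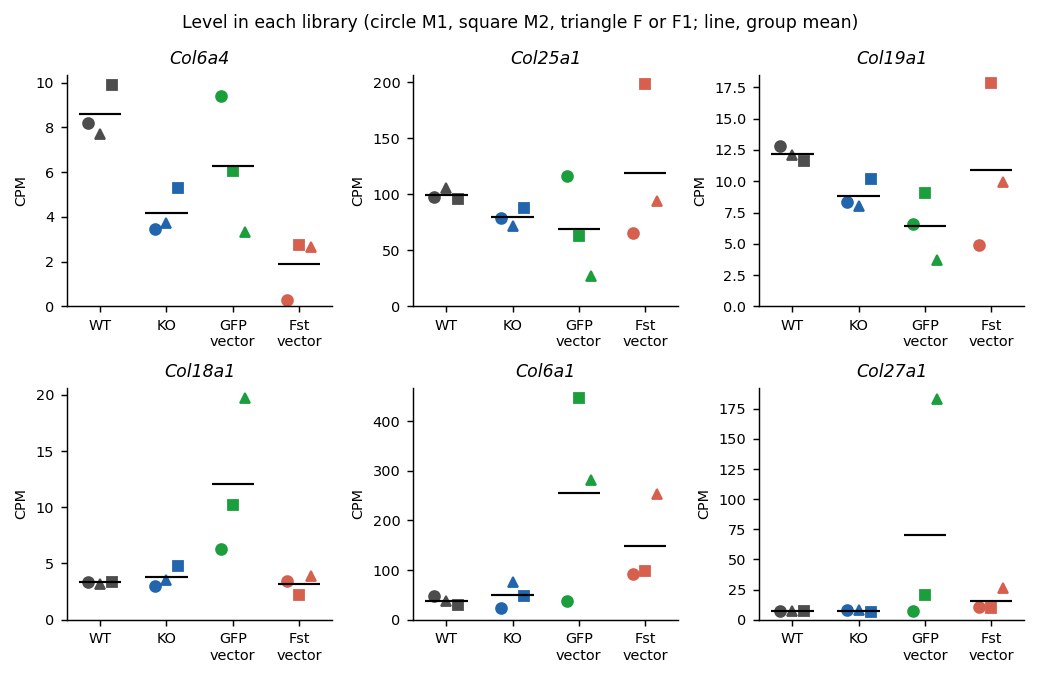
CPM in each library for 6 collagen genes, with groups on the horizontal axis, the library's name by symbol and the group mean as a line. Col6a4, Col25a1 and Col19a1 are lower in each KO library than in each WT library, Col18a1 is higher in each GFP vector library than in each Fst vector library, and the GFP vector mean of Col27a1 rests on GFP F at 183.5 CPM.

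Within the vector table, the Fst vector group was compared with the GFP vector group, which asks how collagen transcripts stand where Fst is supplied. No collagen passed after adjustment in edgeR's test, where 12 of 15034 genes, 0.0798%, did, and DESeq2 called 1. At an unadjusted p under 0.05 there were 2 of 31 collagens, both lower with the Fst vector, against 9.51% of all genes. The groups did not overlap for 3 of the 31, against 16.5% of all genes: Col6a4 and Col18a1 were lower and Col26a1 higher. By log2 change 13 were higher and 18 lower, with a median of -0.27, beside 0.01 for all genes tested. Without GFP F, 22 were higher and 9 lower and the median was 0.09, so the lower median rested on that library. The median size of the log2 change was 0.57 for the collagens and 0.17 for all genes, and without GFP F it was 0.26 and 0.16.

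Col18a1 (ENSMUSG00000001435; chromosome 10, 77052178 to 77166548, minus strand) encodes the basement membrane collagen from which endostatin, an inhibitor of vessel growth, is cut. It stood at 6.31, 10.2 and 19.8 CPM in GFP M1, M2 and F. In Fst M1, M2 and F it stood at 3.44, 2.23 and 3.88 CPM, all below the lowest GFP vector library. The untreated groups were at the level of the Fst vector group, with 3.36, 3.22 and 3.35 CPM in WT M1, F1 and M2 and 3.01, 3.53 and 4.77 in KO M1, F1 and M2. The means were 3.18 ± 0.853 CPM with the Fst vector and 12.1 ± 6.91 with the GFP vector (SD, n = 3 each). The log2 change was -1.97 ± 0.43 (SE, edgeR, unadjusted p = 0.00160, adjusted p = 0.194). Without GFP F it was -1.42 ± 0.33, with an adjusted p of 0.271. With the replicate names as a block it was -1.86 ± 0.32, with an adjusted p of 0.05001, still above the threshold. DESeq2 gave an adjusted p of 0.00101, and sex by title as a term 0.0311, so the call depended on the tool and the model. The range over 14 alternatives was 0.00101 to 0.6995.

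Col6a4 was again lower. It stood at 9.404, 6.04 and 3.34 CPM in GFP M1, M2 and F, and at 0.295, 2.73 and 2.66 in Fst M1, M2 and F. The groups did not overlap, and the value of Fst M1 came from 3 counts. The log2 change was -1.76 ± 0.66 (SE, edgeR, unadjusted p = 0.0295, adjusted p = 0.461), and -2.07 ± 0.62 without GFP F. The adjusted p ran from 0.140 to 0.783 over 14 alternatives. Fst was lower in KO than in WT and higher with the Fst vector than with the GFP vector, and Col6a4 was on the lower side both times. The WT and KO libraries are not those of the vector comparison, so the comparisons share none.

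Col4a5 had the third smallest p among the lower genes and overlapped. This X-linked basement membrane chain stood at 2.23, 5.65 and 9.73 CPM in GFP M1, M2 and F and at 2.06, 3.24 and 3.43 in Fst M1, M2 and F (log2 change -1.06 ± 0.48, SE). Without GFP F its log2 change was -0.49 ± 0.43. On the higher side were Col13a1, Col9a3 and Col26a1. Col13a1 (chromosome 10, 61838236 to 61979108, minus strand), a transmembrane collagen known from the neuromuscular junction, stood at 1.73, 4.87 and 2.96 CPM in GFP M1, M2 and F. It stood at 4.03, 4.96 and 10.6 CPM in Fst M1, M2 and F, overlapping (log2 change 0.98 ± 0.46, SE). Col9a3, a fibril-associated chain of cartilage, stood at 13.2, 14.1 and 16.5 CPM in GFP M1, M2 and F and at 23.0, 15.0 and 20.4 in Fst M1, M2 and F (log2 change 0.38 ± 0.20, SE). Only Fst M2 was within the range of the GFP vector group. Col26a1 stood at 0.742, 2.04 and 1.72 CPM in GFP M1, M2 and F and at 2.36, 2.94 and 2.10 in Fst M1, M2 and F (log2 change 0.65 ± 0.40, SE). These were 45 and 72 counts in all.

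**Figure D4:**
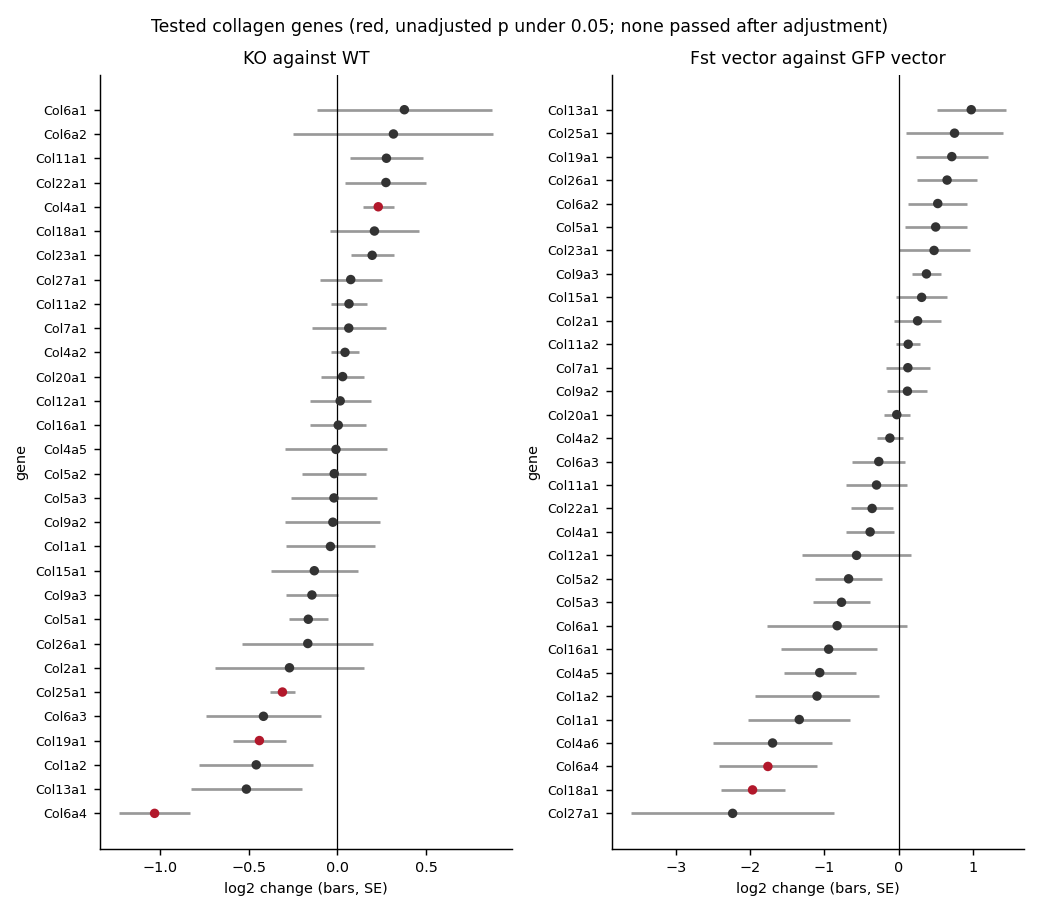
Log2 change and SE (bars) of each collagen gene tested, KO against WT on the left and Fst vector against GFP vector on the right, with unadjusted p under 0.05 in red. Col6a4 lies at -1.03 in KO and the other KO values between -0.51 and 0.38, and the vector values spread from -2.24 to 0.98 with wide SEs.

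Several other large differences of means in the vector comparison came from 1 or 2 libraries. Col27a1 (chromosome 4, 63214004 to 63334991) stood at 6.93, 20.8 and 183.5 CPM in GFP M1, M2 and F, and at 10.3, 9.92 and 26.1 in Fst M1, M2 and F. In WT and KO all 6 libraries lay between 6.40 and 8.27 CPM. Its log2 change of -2.24 ± 1.37 (SE, edgeR, adjusted p = 0.708) was 0.10 ± 0.63 without GFP F. Col6a1 stood at 38.0, 445.7 and 282.2 CPM in GFP M1, M2 and F and at 91.2, 97.1 and 253.7 in Fst M1, M2 and F, so that high and low libraries were in both groups (log2 change -0.83 ± 0.94, SE). Col1a1, a chain of type I collagen, stood at 3.46, 6.33 and 19.9 CPM in GFP M1, M2 and F and at 3.24, 2.53 and 6.42 in Fst M1, M2 and F. Its log2 change of -1.34 ± 0.68 (SE) was -0.32 ± 0.44 without GFP F. Its partner chain Col1a2 stood at 4.08, 5.75 and 23.7 CPM and at 2.26, 3.95 and 10.1 in the same order. Col16a1, a fibril-associated chain, was at 53.8 CPM in GFP F and at 8.91 to 16.0 in the other 11 libraries. Col4a6 was at 8.49 CPM in GFP F and at most 2.14 elsewhere.

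Col3a1, the chain of type III collagen and a marker of fibroblasts, was too low for the test. It stood at 0.619, 0.487 and 10.1 CPM in GFP M1, M2 and F and at 0.0982, 0.203 and 2.55 in Fst M1, M2 and F. In WT and KO it was at 0.215 to 0.642 CPM. GFP F and Fst F, the female libraries of the vector groups, were thus the high ones, from 106 and 23 counts.

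Col25a1 and Col19a1 were low in GFP F. Col25a1 stood at 116.1, 63.0 and 27.2 CPM in GFP M1, M2 and F and at 65.2, 198.5 and 93.8 in Fst M1, M2 and F (log2 change 0.75 ± 0.65, SE). Col19a1 stood at 6.56, 9.06 and 3.72 CPM in GFP M1, M2 and F and at 4.91, 17.8 and 9.96 in Fst M1, M2 and F (log2 change 0.72 ± 0.48, SE). Without GFP F the log2 changes were 0.37 ± 0.56 for Col25a1 and 0.43 ± 0.48 for Col19a1. Both were highest of the 12 libraries in Fst M2 and lowest in GFP F, and both groups overlapped. The interneuron markers summed to 666.4, 789.7 and 806.5 CPM in GFP M1, M2 and F. In Fst M1, M2 and F they summed to 831.8, 941.5 and 771.3 CPM. Those of Cajal-Retzius cells summed to 76.5, 114.9 and 168.6 CPM and to 81.9, 106.7 and 115.8 in the same order. Their sum was thus the highest of the 12 libraries in GFP F, where Col19a1 was lowest. The part of these cells was not tested. Col4a1 and Col4a2, at 76.7 and 84.1 CPM in GFP F, against 30.6 to 47.8 and 53.2 to 69.8 in the other 5 vector libraries, had log2 changes of -0.38 ± 0.32 and -0.12 ± 0.18 (SE) that turned positive without GFP F. Col11a2 stood at 44.4, 56.4 and 39.8 CPM in GFP M1, M2 and F and at 58.5, 46.4 and 52.6 in Fst M1, M2 and F, with no shift beyond its spread.

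**Figure D5:**
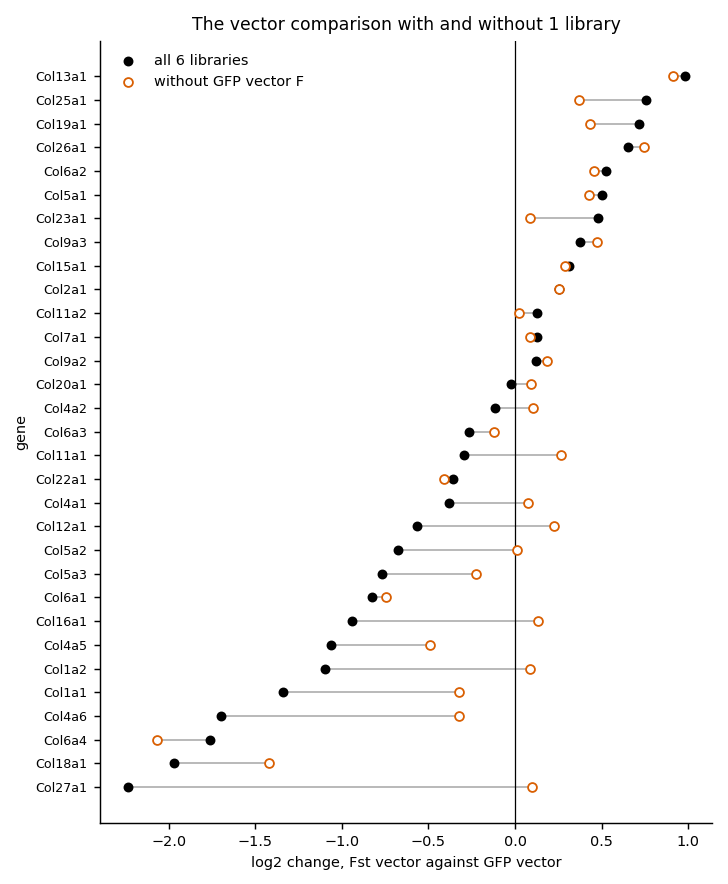
Log2 change of each collagen gene tested in the vector comparison with all 6 libraries (filled) and without GFP F (open), joined by a line. Col27a1 moves from -2.24 to 0.10 and Col1a1 from -1.34 to -0.32, while Col18a1 (-1.42) and Col6a4 (-2.07) stay low.

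Several other transcripts moved with the collagens in GFP F, and their part in the collagen values was not tested. The 18 listed markers of meningeal fibroblasts summed to 108.4, 106.5 and 157.2 CPM in GFP M1, M2 and F and to 89.1, 93.6 and 142.6 in Fst M1, M2 and F. In WT and KO the sum was 72.0 to 109.1 CPM. The members of this list did not move alike. In GFP M1, M2 and F, Dcn was at 5.57, 6.92 and 10.8 CPM, but Ogn at 8.41, 1.36 and 1.34. Of the 14 tested, 5 were higher and 9 lower with the Fst vector by log2 change. All 18 were detected in GFP M2, GFP F and Fst F, with Slc22a2 at 0 in GFP M1, Foxc2 in Fst M1, and Slc22a2 and Mpzl2 in Fst M2. Gfap, the filament protein of astrocytes, stood at 566.3, 1555 and 4864 CPM in GFP M1, M2 and F, against 612.8 to 1033 with the Fst vector and 369.8 to 463.5 in WT and KO. Vim was at 358.4 CPM in GFP F and at most 69.5 elsewhere, and Bgn, a matrix proteoglycan that binds collagen, was at 81.1 and at most 11.69. Gfap, Vim and Bgn were chosen after their values were seen. The 12 endothelial markers summed to 163.0, 198.2 and 257.9 CPM in GFP M1, M2 and F and to 245.0 to 257.7 in the Fst vector libraries. By log2 change 11 of them were higher and 1 lower with the Fst vector, with a median of 0.23, and none passed after adjustment.

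Same-named vector libraries may be pairs, which no label states. Their deviations from the group means correlated at 0.137 to 0.390, and those of differently named libraries at -0.461 to 0.12. With the names as a block, 6 of 31 collagens had an unadjusted p under 0.05, against 14.3% of all genes, and none passed after adjustment. They were Col1a1, Col1a2, Col4a5, Col4a6 and Col18a1, lower, and Col13a1, higher. Col6a4 was not among them, with a log2 change of -1.76 ± 0.75 (SE). Without GFP M1, 10 of 33 collagens had an unadjusted p under 0.05, against 12% of all genes. Of these, 9 were lower, and again none passed after adjustment.

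Whether the collagens answered differently in the comparisons was tested as the change with the Fst vector minus the change in KO, in a fit of all 12 libraries. None of 33 collagens passed after adjustment, where 0.281% of all genes did. There were 2 with an unadjusted p under 0.05, against 9.95% of all genes. Col18a1 had a difference of -2.19 ± 0.52 on the log2 scale (SE, edgeR, adjusted p = 0.116), since its change in KO was 0.21 ± 0.25. Col13a1 had a difference of 1.48 ± 0.57 (SE, edgeR, adjusted p = 0.368), since its change in KO was -0.51 ± 0.31. For Col6a4 the difference was -0.74 ± 0.70 (SE, edgeR, adjusted p = 0.792), so its changes in the comparisons were not shown to differ. The adjusted p of Col18a1 was 0.0254 with the replicate block and 0.0114 without GFP M1, both under the threshold.

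Chains that form a protein together did not keep a fixed ratio in all libraries. Col6a1 was 7.66 to 11.8 times Col6a2 per kb in 9 libraries, and 29.4, 33.1 and 14.4 times in GFP M2, GFP F and Fst F. Col5a1 was 2.57 to 4.64 times Col5a2 in the same 9 libraries and 0.953, 0.542 and 1.47 times in GFP M2, GFP F and Fst F. The ratio of Col4a1 to Col4a2 kept between 0.468 and 0.808 throughout, and that of Col1a1 to Col1a2 between 1.11 and 3.39. Col6a4 was 4.05 to 6.74 times Col6a3, a chain whose place it can take, in WT, and 2.81 to 4.56 times in KO. With the Fst vector the ratio was 0.150 to 1.16, and with the GFP vector 6.27, 1.74 and 1.002 in M1, M2 and F.

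The enzymes and partners of collagens were followed in 7 lists of 96 genes, covering folding and hydroxylation, export from the cell, propeptide cleavage and cross-linking, receptors, breakdown, basement membrane partners and proteoglycans. In KO against WT none of the 80 tested passed after adjustment, and 4 (2 higher, 2 lower) had an unadjusted p under 0.05, against 5.96% of all genes. The higher ones were Adamts14, which trims procollagen ends (4.10 ± 1.09 CPM in KO, 2.40 ± 0.991 in WT; log2 change 0.81 ± 0.29, SE), and the proteoglycan Ogn (7.12 ± 0.553 against 5.13 ± 1.17; 0.48 ± 0.20). The lower ones were P3h4, part of a collagen-modifying complex (7.56 ± 1.03 against 9.78 ± 0.838; -0.36 ± 0.17), and Timp3, an inhibitor of matrix proteases (33.1 ± 4.55 against 39.2 ± 5.52; -0.23 ± 0.11). The next in order were Loxl1, a cross-linking enzyme, at 0.47 ± 0.28, and Dcn, the fibril-binding proteoglycan decorin, at -0.53 ± 0.25 on the log2 scale. Their median log2 change was -0.01.

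In the vector comparison 1 of 82 tested genes of these lists passed, and 9 (3 higher, 6 lower) had an unadjusted p under 0.05, a share near the 9.51% of all genes. The one that passed was Sec24d, a cargo-binding subunit of the COPII coat that carries procollagen out of the endoplasmic reticulum. It stood at 81.2, 55.7 and 79.3 CPM in GFP M1, M2 and F and at 22.9, 23.3 and 20.04 in Fst M1, M2 and F. Its groups did not overlap, and it fell by 1.74 ± 0.17 on the log2 scale (SE, edgeR, adjusted p = 0.0136). Sec24d was put on the list with its change known, and its adjusted p was 0.0866, 0.179 and 0.0773 without Fst M1, M2 and F. In WT and KO it stood at 59.1 to 73.1 CPM. Npnt, the basement membrane protein nephronectin, was at 48.4 ± 9.69 CPM with the Fst vector and 114.9 ± 30.7 with the GFP vector (log2 change -1.28 ± 0.23, SE, edgeR, adjusted p = 0.136). With the replicate block the adjusted p of Npnt was 0.00851, and it was also under the threshold with no filter, with sex by title and with DESeq2. Ppib, a proline isomerase that aids collagen folding, was at 70.5 ± 1.78 against 89.8 ± 5.73 CPM (-0.38 ± 0.11). Mmp15, a membrane-bound matrix protease, was at 24.1 ± 7.73 against 11.9 ± 1.49 CPM (0.98 ± 0.24), the protease inhibitor Timp2 at 294.9 ± 39.0 against 198.1 ± 40.8 (0.54 ± 0.17), and Bmp1, which cuts off the C-propeptide of procollagen, at 372.3 ± 32.3 against 280.0 ± 31.1 (0.38 ± 0.13). In edgeR's test with all 6 libraries, default settings and no added term, none of these 5 passed after adjustment. Mmp15 passed with no filter (adjusted p = 0.00301) and with DESeq2 (0.0314). The groups did not overlap for any of the 5, against 16.5% of all genes. Their choice by small p favours such a result. The median log2 change of the 82 was -0.18, beside 0.01 for all genes.

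The transcripts most like Col6a4 were sought among 14993 genes with a mean above 1 CPM, by Pearson's r of log2(CPM + 1) over the 12 libraries, which share their groups and depth. They were Gm38394 (0.929), Dzip1l (0.915), Msh3 (0.913), Rmc1 (0.912) and the small nuclear RNA Gm23458 (0.911). The mean of each was highest in WT and lowest with the Fst vector, as was that of Col6a4. Their choice by likeness to Col6a4 in these libraries favours such an order. Dzip1l went from 37.6 CPM in WT to 35.2 in KO, 35.1 with the GFP vector and 28.9 with the Fst vector. Col6a4 went from 8.60 to 4.16, 6.26 and 1.90 CPM in these groups.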

How the data were processed

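Total RNA of the dentate gyrus was sequenced in 12 libraries, 3 for each of 4 groups taken from the descriptions. Per the file headers, the authors' 2 tables hold raw counts of reads for 52636 Ensembl genes. Another 12 lines of the vector table and 6 of the other named no gene and were left out. Reads were placed on GRCm38, per the submitters' processing notes. Aligner, counter, annotation and strand handling: not given in the sources used here.

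Symbols, coordinates and exon lengths came from GENCODE for GRCm38, which matched 52403 IDs. CPM used library totals of 8081824 to 11331337 counts, where 3 counts equal 0.265 to 0.371 CPM. Such floors cover counting error only, while SDs, SEs and p-values come from the spread between libraries. KO was compared with WT, and Fst vector with GFP vector, each within its own table by the quasi-likelihood test of edgeR (version 4.0.16, in R 4.3.3, with TMM, filterByExpr, robust dispersion, Benjamini-Hochberg at 0.05 over all genes). The difference of the effects used all 12 libraries. The SE is the log2 change over the root of F. Alternatives were other scalings, filters, terms, DESeq2 1.42.0 and leaving out each library.

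Deviations of same-named libraries from their group means correlated at 0.325 (M1), 0.137 (M2) and 0.390 (F) in the vector table, so the names were tried as a block. The M2 value was close to the 0.12 of Fst M2 with GFP M1. No label states such a pairing.

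Every collagen is named by its level. Values in every library are given for genes that passed, for the 3 smallest p in each direction and for the 5 highest levels per kb, and others named beyond these were chosen after their values were seen. For pathway lists, genes that passed and the 3 smallest p in each direction are named. The 44 genes, the classes, the 7 pathway lists and the 12 marker lists were chosen with earlier results of these data known. The marker lists were meningeal fibroblasts, endothelial cells, mural cells, choroid plexus, oligodendrocyte precursors, astrocytes, dentate granule neurons, interneurons, Cajal-Retzius cells, CA1 pyramidal neurons, microglia and blood.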

Additional observations from a re-analysis of the deposited data

How the results depend on the processing

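The number of collagens that passed after adjustment in KO against WT was 0, and became 1 with library totals, 1 with a minimum of 10 counts, 2 with no filter and 2 with sex by title as a term. Leaving out 1 library gave 0 to 1, with 1 without WT F1 and without KO M2. With the replicate block the number was 1, and Col6a4 had an adjusted p of 0.0142. Here same-named libraries correlated at 0.0606, 0.130 and -0.0807, within the -0.197 to 0.178 of differently named ones. In the vector comparison the 0 became 1 with no filter, with sex by title and with DESeq2, and leaving out 1 library gave 0 to 0. With the replicate block it was 0. For the difference of the effects the 0 became 1 with no filter and 1 with the replicate block, and leaving out 1 library gave 0 to 1. Why these counts changed was not tested.

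Single log2 changes turned sign when 1 library was left out. In KO against WT, Col11a2 ranged from -0.0358 (without WT F1; -0.0182 without KO F1) to 0.1533, Col4a2 from -0.018 (without KO F1) to 0.0878 and Col6a1 from -0.0609 (without KO F1) to 0.7079. In the vector comparison, Col4a1 ranged from -0.5931 to 0.0745, Col4a2 from -0.2401 to 0.1061 and Col27a1 from -2.8353 to 0.1003, all positive only without GFP F. The cause was not tested. Of the recomputed log2 changes of the genes named by rule and of 5 more whose change is printed (Col13a1 and Col18a1 in KO; Col1a1, Col19a1 and Col27a1 with the vectors), 544 kept direction and side of the threshold, 21 passed it newly, 3 no longer passed it and 7 turned sign. Col1a2 and Col16a1, outside that tally, also turned sign without GFP F, to 0.09 and 0.13. Depth limited 11 collagens, which did not pass the default filter on low counts with all libraries; looser filters tested up to 44.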

Other observations

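The remaining marker lists are given as sums over the libraries of a group. Choroid plexus markers summed to 26.7, 27.3 and 59.5 CPM in GFP M1, M2 and F, to 18.7, 18.5 and 11.6 in Fst M1, M2 and F, and to 27.3 to 32.9 in WT and KO. Mural cell markers summed to 98.0 to 143.4 CPM with the GFP vector, 130.7 to 142.3 with the Fst vector and 104.0 to 118.0 in WT and KO. Microglial markers summed to 255.9, 287.3 and 341.3 CPM in GFP M1, M2 and F and to 220.5 to 276.7 in the other 9 libraries. Markers of oligodendrocyte precursors summed to 113.0 to 146.8 CPM, of CA1 pyramidal neurons to 55.0 to 78.5 and of blood to 32.5 to 91.6 over the 12 libraries. Dentate granule neuron markers summed to 2245 CPM in GFP F and to 2462 to 3147 in the other 11.

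Timp1, an inhibitor of matrix proteases that astrocytes make after injury, stood at 23.3 CPM in GFP F and at most 1.52 in the other 11 libraries. Serpina3n, a protease inhibitor of reactive astrocytes, stood at 54.9, 127.9 and 574.7 CPM in GFP M1, M2 and F, 24.3 to 33.9 with the Fst vector and 39.8 to 48.0 in WT and KO. Both were chosen after their values were seen.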
